A study of Triticum aestivum with 2 samples.

Results

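The lists of the study give the putative function RUBISCO large subunit to probe sets of 2 design clusters of the Wheat Genome Array. One is a large cluster with the prefix TaAffx, here called the TaAffx cluster, to which for example TaAffx.128414.215.S1_s_at belongs. The other has the prefix Ta. All probe sets whose names start with the prefix and cluster number of either were taken, 59 of the TaAffx cluster and 1 of the other, here called the Ta-prefixed probe set, in all 60 of the 61115 wheat probe sets. Within the TaAffx cluster the number after that of the cluster tells the design sequences apart, followed by the letter S or A and a suffix. No probe set outside these 2 clusters carries this putative function in the lists of the study, so none was added. The 60 probe sets come from 56 design sequences, and among the 45641 clusters of the array the TaAffx cluster has the second largest number of probe sets. It was chosen because some of its probe sets stand in those lists, which were drawn from the same arrays. The values are therefore given as a description, and no test was made.

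RUBISCO fixes carbon dioxide in the Calvin cycle of photosynthesis. In higher plants its catalytic large subunit is encoded by rbcL in the chloroplast genome, and its small subunit by a gene family in the nucleus. The enzyme is among the most abundant proteins of a leaf, and rbcL RNA is abundant in green tissue. Plastid RNA is largely without the long poly(A) tails of nuclear mRNA, and plastid genomes are transcribed from both strands over wide regions.

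Total RNA of 5 tissues of the spring wheat 'Chinese Spring' (dark-germinated seed, shoot, flag leaf, and the spike before and after anthesis) was mixed in equal concentrations, and the mixture was read on 2 arrays. The plants carried no treatment, and since the tissues were mixed no value can be given to one of them. The array labelled for the sense strand followed the 3'IVT assay, which primes at poly(A) with oligo(dT) and labels cRNA antisense to the mRNA. The array labelled for the antisense strand followed the WT assay, which starts from random primers and labels cDNA with the orientation of the mRNA. Each assay was hybridized 1 time, and the spread between samples is therefore unknown. In the pool, fewer cells of a type and less RNA per cell cannot be told apart.

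Values are the log2 of the MAS5 signal, each array having been scaled on its own. The lowest probe set of the spiked-in control bioB was taken as the limit of positive hybridization, with a log2 signal of 9.69 for the 3'IVT assay and of 15.19 for the WT assay. The study set its limit on bioB too, but on RMA values and after a Present call, which was not used here. Wheat lacks the reporter genes for which 63 probe sets were used as background, and these reached at most 7.02 and 11.76. A further reporter gene probe set, at 15.33 and 19.58, was left out because it lay above the 3'IVT threshold, so the ceiling of background depends on leaving it out. Whether this probe set reads one of the spiked-in controls was not checked. With it kept, 1 member was above the highest reporter gene in each assay and 0 in both. Over 27 spike-in probe sets of 9 control regions, the SD within a region was 0.32 log2 units on the 3'IVT array and 0.26 on the WT array, differences between probe designs included. Because probes differ in how they bind, signals of different probe sets are not ranked here as amounts of RNA. Where 2 log2 signals of a probe set are given together, the 3'IVT signal comes first and the WT signal second.

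Both signals of 38 of the 60 probe sets (63.3%) lay within the range of the reporter genes, against 53.8% of all wheat probe sets. A signal below the highest reporter gene does not show that a transcript was absent. Above the highest reporter gene were 21 of the 60 in the 3'IVT assay, against 44.9% of the array, and 10 in the WT assay, against 3.26%. The median log2 signals of the 60 were 6.04 and 7.21, each below the median of its array (6.63 and 8.01). Above the bioB threshold of the 3'IVT assay were 12 of the 60 (20.0%), near the 17.3% of all wheat probe sets. In the WT assay 7 (11.7%) exceeded the threshold, against 0.367% over the array. All 7 are the probe sets listed by the study as RUBISCO large subunit, and the other 53 were below this threshold. The WT count therefore repeats the selection of the cluster. With the highest bioB probe set as the limit it was 4, and among _at probe sets alone the counts were 5 (3'IVT) and 1 (WT). The putative function was given to these 7. The platform annotation pairs 25 of the 60 with a gene whose RefSeq synonym is rbcl, leaving 35 without a gene here. RefSeq lists that gene among the nuclear genes of its assembly. Which of the 60 read rbcL was not tested, so the probe sets are called by their names and not by the enzyme.

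The 7 probe sets above the WT threshold were divided by the 3'IVT threshold into 2 sets. In the first set, 4 probe sets were above both thresholds, against 0.208% of the array. Their number was 1 with the highest bioB probe set as the limit, and 0 without probe sets that share probes. The Ta-prefixed probe set, an S-lettered _x_at one, gave log2 signals of 15.55 and 16.61 (3'IVT, WT). The A-lettered _x_at probe set of design sequence 1 gave 15.27 and 16.49. These were the nearest pair of the first set. TaAffx.128414.215.S1_s_at gave log2 signals of 14.95 and 16.17. TaAffx.128414.219.S1_x_at gave 15.28 and 15.47. In the same order, the 4 held ranks 4, 22, 76 and 21 of 61115 on the 3'IVT array and stood lower on the WT array, at ranks 110, 116, 143 and 193. Their 3'IVT signals spanned 0.61 log2 units and their WT signals 1.14. The lowest of them in the WT assay, TaAffx.128414.219.S1_x_at, was 0.28 above the threshold, about the SD between spike-in probe sets. Every probe set of this set has a suffix for probes that other sequences share. The part of other transcripts in their signals was not tested.

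In the second set, 3 probe sets were above the WT threshold alone, against 0.159% of the array. The A-lettered _x_at probe set of design sequence 229 gave log2 signals of 0.87 and 19.60 (3'IVT, WT). TaAffx.128414.24.A1_s_at gave 7.73 and 19.53. TaAffx.128414.6.S1_at gave 8.68 and 19.24. They held ranks 6, 9 and 24 of the WT array, and were 4.05 to 4.41 log2 units above its threshold. Their WT signals were within 0.36 log2 units of each other. In the 3'IVT assay the probe set of design sequence 229 ranked 60132, below the median of the reporter genes (3.10). The other two were above the highest reporter gene and 1.96 and 1.02 log2 units below the threshold. A gap of 2.63 log2 units in the WT signal separated the second set from the first. The other carbon fixation genes held 2 probe sets above the WT threshold alone. TaAffx.52923.1.S1_at (16.07) lay within the WT range of the first set and Ta.27660.1.A1_at (18.08) above it. Whether such a gap is common over the array was not examined.

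A further 8 probe sets were above the 3'IVT threshold alone, which held for 17.1% of the array. Of these, 3 were _x_at probe sets far above it. TaAffx.128414.205.S1_x_at gave log2 signals of 14.82 and 12.60 (3'IVT, WT). TaAffx.128414.176.S1_x_at gave 13.79 and 12.06. TaAffx.128414.60.S1_x_at gave 13.02 and 12.79. Their WT signals were above the highest reporter gene, at percentiles 98.32, 97.40 and 98.55 of the array. The other 5 end in _at and were nearer to the 3'IVT threshold. TaAffx.128414.102.S1_at gave log2 signals of 10.64 and 10.16, and TaAffx.128414.152.S1_at of 10.59 and 5.97. The signals of TaAffx.128414.181.S1_at were 10.40 and 8.25, and those of TaAffx.128414.18.S1_at 10.39 and 8.89. For TaAffx.128414.72.S1_at they were 9.76 and 5.32. The WT signals of these 5 were all within the range of the reporter genes. Closest to the 3'IVT threshold were TaAffx.128414.72.S1_at, 0.06 above it, and TaAffx.128414.196.S1_at at 9.03, which was 0.67 below it. The former distance is smaller than the SD between spike-in probe sets. In the WT assay TaAffx.128414.60.S1_x_at was the highest member below the threshold, by 2.39, so that 2.68 log2 units without a member lay between it and TaAffx.128414.219.S1_x_at. The remaining 45 probe sets were above neither threshold, which held for 82.6% of the array.

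Affymetrix marks the orientation of a design sequence by the letter S or A in the name. If the orientation given is right, the WT signal of an A-lettered probe set comes from sense transcripts and is no measure of antisense transcription. The letter A was carried by 4 of the 60 probe sets (6.67%, against 17.4% of the array), and no design sequence was read by both letters. They are the probe sets of design sequences 1, 24 and 229 described above and TaAffx.128414.190.A1_at, with log2 signals of 1.69 and 6.92. The first 3 were above the WT threshold, and only that of design sequence 1 was above that of the 3'IVT assay. TaAffx.128414.190.A1_at was within the range of the reporter genes in both.

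The A-lettered probe sets had median log2 signals of 4.71 and 18.01 (3'IVT, WT), and the S-lettered ones of 6.04 and 7.07. Over the array these medians were 7.31 and 7.79 for the letter A and 6.46 and 8.06 for the letter S. Of the 4 A-lettered members, 3 were listed by the study for a high WT signal on this array. Their WT median and their count above the WT threshold therefore repeat that selection. The ranges of the letters overlapped in both assays. The A-lettered probe set of design sequence 1 differed from the S-lettered Ta-prefixed probe set by less than 0.32 log2 units on the 3'IVT array and by less than 0.26 on the WT array, the SDs between spike-in probe sets. TaAffx.128414.6.S1_at carries the letter S but lay beside the A-lettered probe sets of the second set. Of the 56 S-lettered probe sets, 11 were above the 3'IVT threshold, against 17.5% of all S-lettered wheat probe sets, 4 above the WT threshold, against 0.367%, and 44 above neither. Of the 4 A-lettered ones, 1 was above the 3'IVT threshold, against 16.2% of all A-lettered wheat probe sets, and 3 above the WT threshold, against 0.366%. A strand-specific RT-PCR of the study, for design sequence 1, gave a product for both strands in every tissue of the pool. That gel result is not part of the deposited signals and was not examined here.

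By suffix, the highest 3'IVT signals lay among probe sets with shared probes. Probes of an _at set are unique to the design sequence, all probes of an _s_at set are shared by several transcripts, and an _x_at set holds probes that also occur, or nearly so, in other sequences. The 60 comprised 45 _at, 2 _s_at and 13 _x_at probe sets. The _x_at probe sets made up 21.7% of them, against 11.1% of the array. Of the 13, 6 were above the 3'IVT threshold, against 34.1% of all _x_at probe sets. In the WT assay 4 of the 13 exceeded the threshold, against 0.532%. Of the 45 _at probe sets, 5 were above the 3'IVT threshold, against 12.2% of all _at probe sets, and only TaAffx.128414.6.S1_at was above that of the WT assay. The other 43 S-lettered _at probe sets reached at most 11.33 in the WT assay (TaAffx.128414.196.S1_at) and at least 2.66 (TaAffx.128414.83.S1_at). In the 3'IVT assay the S-lettered _at probe sets ranged from 0.33 (TaAffx.128414.54.S1_at) to 10.64 (TaAffx.128414.102.S1_at). No _at probe set was above both thresholds. All members above the WT threshold were listed by the study for a high WT signal, so the WT counts by suffix repeat that selection.

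The 3'IVT threshold divided the 11 S-lettered _x_at probe sets into 5 above it and 6 below it. Of all S-lettered _x_at wheat probe sets, 34.4% were above it. The 2 groups did not overlap in the WT assay. The Ta-prefixed probe set and those of design sequences 219, 205, 176 and 60 had 3'IVT signals of at least 13.02 and WT signals of at least 12.06. The other 6 had 3'IVT signals of at most 6.43 and WT signals of at most 7.82, all within the range of the reporter genes. The lowest was TaAffx.128414.54.S1_x_at, with -0.08 and 3.96. High signals and signals within the range of the reporter genes thus both occurred among probe sets with this suffix.

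For 4 design sequences both an _at and an _x_at probe set are on the array, and all 8 were below both thresholds. For TaAffx.128414.147 the _x_at probe set was higher by 2.23 log2 units in the 3'IVT assay (3.80 against 1.58) and by 4.24 in the WT assay (7.40 against 3.16). For TaAffx.128414.15 it was higher by 1.96 and 1.11. For TaAffx.128414.201 it was higher by 1.30 in the 3'IVT assay and lower in the WT assay, at 4.93 against 6.38. For TaAffx.128414.54 it was lower in both, at -0.08 against 0.33 and at 3.96 against 5.42. Over the 3039 such pairs of the array the median difference was 0.26 and 0.25 log2 units, with quartiles of -0.22 and 1.14 on the 3'IVT array and of -0.73 and 1.41 on the WT array. At these low signals MAS5 values carry little information, since mismatch signal has been subtracted.

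Within the TaAffx cluster the low probe sets included all those with design numbers from 37 to 56. These 20 probe sets of 19 design sequences were all below both thresholds, as were 82.6% of all wheat probe sets. They had median log2 signals of 4.82 and 7.21 and highest ones of 7.05 and 9.01 (3'IVT, WT). This range was picked after its values were seen. The 40 others had medians of 7.26 and 7.24 and included all 15 probe sets above a threshold. The platform annotation gives an EST accession of the BE series for 13 members, 10 of them in this range. These 13 had medians of 5.27 and 6.26, and none was above a threshold. Of the 29 probe sets of the BE series on the array, these 13 included, 17.2% were above the 3'IVT threshold and 0% above the WT threshold. The 11 members with a CA accession had medians of 8.18 and 8.25, with 3 above the 3'IVT threshold and 2 above the WT threshold, against 30.8% and 3.08% of all CA probe sets. What the ESTs of the BE series hold was not tested.

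In 41 of the 60 probe sets the WT signal was the higher one, as in 62.2% of the array. The difference between the assays, WT minus 3'IVT log2 signal, was compared with that of the spike-ins, since the arrays were scaled apart. For the 27 spike-in probe sets it was 4.35 to 6.55, with a median of 5.47 and an SD of 0.20 within a control region. Of the 60 probe sets, 50 had a difference below this range, as had 84.3% of the array, and 4 had one above it, as had 4.51% of the array. Of these 4, the probe set of design sequence 229 had a 3'IVT signal within background, so its difference is only bounded, at 12.57 or more from the highest reporter gene (18.72 as measured). It was 11.79 for TaAffx.128414.24.A1_s_at and 10.56 for TaAffx.128414.6.S1_at. The fourth, TaAffx.128414.41.S1_at, had 6.61 from signals of 1.68 and 8.30 that are both within the range of the reporter genes. The 4 probe sets above both thresholds had differences of 0.19 to 1.23. At the other end, TaAffx.128414.152.S1_at had a difference of -4.62. The median difference was 1.07 for the S-lettered and 8.51 for the 4 A-lettered probe sets, against 1.24 and 0.15 for all S-lettered and A-lettered wheat probe sets. All A-lettered members but TaAffx.128414.190.A1_at were listed by the study for a high WT signal, so their median difference partly repeats that selection. The median difference of the S-lettered ones turned negative when the WT array was shifted by the spike-in difference (-4.40) or both arrays were quantile normalized (-0.54). Over the 60 probe sets the signals of the assays had a Spearman rho of 0.422, and over the 53 below the WT threshold 0.333, against 0.284 over the array. These describe probe sets that share a cluster and the same 2 arrays.

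For 2 probe sets of the first set, the listed probe sets with a named function and the nearest pair of signals were those of other carbon fixation genes. Likeness was the Euclidean distance between the log2 signals of the 2 arrays, over the 100 such listed probe sets that are not members. The study had picked these for a high WT signal on the same array, so nearness among them partly repeats that selection. Other probe sets of the array were not searched. For the Ta-prefixed probe set the nearest were the RUBISCO small subunit Ta.2752.2.S1_x_at (log2 signals of 15.38 and 16.82, at a distance of 0.27), carbonic anhydrase Ta.5227.1.S1_at (15.51 and 16.22, at 0.39) and the small subunit Ta.2752.3.S1_x_at (15.57 and 16.19, at 0.42). For the A-lettered probe set of design sequence 1 they were Ta.2752.2.S1_x_at (0.34), Ta.5227.1.S1_at (0.36) and Ta.5227.1.S1_x_at (0.40). For the probe set of design sequence 229 the nearest by measured signals were the COBRA-like protein TaAffx.143995.13.A1_at (3.85 and 15.79, at 4.84), S-adenosylmethionine synthetase TaAffx.53048.1.S1_at (4.70 and 16.43, at 4.96) and alpha-N-arabinofuranosidase A precursor Ta.23014.1.A1_at (5.02 and 15.75, at 5.66). All these 3'IVT signals lie within background, where they have no order. With 3'IVT signals below the highest reporter gene raised to it, a setting added after seeing the data, the nearest were NAD(P)H-dependent oxidoreductase TaAffx.112816.1.S1_at (7.01 and 18.98, at 0.62), activase Ta.27660.1.A1_at (6.63 and 18.08, at 1.52) and DNA-directed RNA polymerase alpha chain TaAffx.129824.10.S1_at (8.42 and 18.85, at 1.59).

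A list of other carbon fixation genes held 17 probe sets. They read the RUBISCO small subunit (6), activase, which keeps RUBISCO active (3), carbonic anhydrase, which interconverts carbon dioxide and bicarbonate (4), and genes with the synonyms PRK, Pgk-1 and pre-FBPase (4). Of the 17, 12 were above the 3'IVT threshold (against 17.3% of the array), 8 above the WT threshold (0.367%) and 6 above both (0.208%). Their medians were 14.59 and 14.45, against 6.63 and 8.01 over the array. The small subunit, activase and carbonic anhydrase entered the list through probe sets that the study had picked from these arrays. PRK, the phosphoribulokinase that regenerates the substrate of RUBISCO, was not picked in this way, and its Ta.23158.1.S1_at gave log2 signals of 15.36 and 12.56. For the small subunit and activase, probe sets of both letters read 1 design sequence. In the small subunit, the A-lettered Ta.2752.1.A1_at gave log2 signals of 7.69 and 13.42, and Ta.2752.1.A1_x_at of 7.32 and 14.45. The S-lettered Ta.2752.1.S1_x_at of the same sequence gave 14.59 and 10.66. For activase, Ta.27660.1.A1_at gave 6.63 and 18.08, Ta.27660.1.S1_at 15.37 and 15.71, and Ta.27660.1.S1_x_at 15.46 and 15.77. Within each of these 2 design sequences the A-lettered probe sets were lower in the 3'IVT and higher in the WT assay than the S-lettered ones. Other S-lettered small subunit probe sets were higher in the WT assay than the A-lettered ones, at 16.82 (Ta.2752.2.S1_x_at), 16.19 (Ta.2752.3.S1_x_at) and 16.07 (TaAffx.52923.1.S1_at), and the last of them was lower in the 3'IVT assay, at 5.99. In the TaAffx cluster a contrast of letters within a sequence could not be read, because no sequence had probe sets of both letters.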

How the data were processed

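The authors deposited 1 MAS5 signal intensity per probe set for each of 2 arrays, and the submitters' processing notes name MAS5. Per the methods, the lists of the study rest on RMA summarized values without background correction or normalization, whereas these signals were scaled within each array (2% trimmed means of 500.3 and 500.2). The values were linear, so their log2 was taken without a pseudocount and without normalization between arrays. Of 61290 probe sets, counts left out the 111 controls and the 64 reporter genes. A reporter gene above the 3'IVT threshold was not used as background. With 1 array per assay no test was possible, and the number of arrays limits the precision.

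Members were the probe sets named TaAffx.128414 (the TaAffx cluster) and Ta.24976. The Ta-prefixed probe set is Ta.24976.1.S1_x_at, and the A-lettered ones of design sequences 1 and 229 are TaAffx.128414.1.A1_x_at and TaAffx.128414.229.A1_x_at. Members, lists and groupings were chosen with earlier results of these data known. Named are all members above a threshold or listed by the study, the extremes by letter and suffix, sequences with several suffixes and the nearest probe sets in the 2 signals. Any other was picked once its values were known. Putative functions come from the lists of the study, other names from the platform annotation and RefSeq (assembly IWGSC CS RefSeq v2.1). Probe sequences were not used here. The counting step gave back the 300 probe sets placed above thresholds in simulated data for 61115 probe sets. The software was Python 3.11.15 with scipy 1.17.1, pandas 2.3.3 and numpy 2.4.6.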

Additional observations from a re-analysis of the deposited data

How the results depend on the processing

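Of 48 values recomputed under alternatives, 18 stayed within 1.5 times the count or within the SD between spike-in probe sets. A threshold at the highest bioB probe set gave 4 in the WT assay and 1 in both. Without probe sets shared between transcripts the counts were 5 in the 3'IVT assay, 1 in the WT assay and 0 in both. Without the listed probe sets they were 0 in the WT assay and 0 in both, and the listed ones alone gave 4 in the 3'IVT assay. A threshold at the highest reporter gene, chosen after seeing the data, gave 21 in the 3'IVT assay and 9 in both, and with the reporter gene that was left out it gave 1 in the 3'IVT assay, 1 in the WT assay and 0 in both. Quantile normalization moved the median signals to 6.80 (3'IVT) and 6.45 (WT) for all, to 6.80 and 6.31 for the letter S and to 5.52 and 16.54 for the letter A. Members above the array median had medians of 9.03 and 10.50. Without shared probe sets the WT median was 6.92 for all and 6.70 for S, and the lone A-lettered probe set had 1.69 and 6.92. The median difference between the assays of the S-lettered probe sets reversed to -4.40 after a shift by the spike-in difference and to -0.54 after quantile normalization. That of the A-lettered ones became 3.04 and 6.30, and 5.23 without listed probe sets, a setting added after seeing the data, which leaves 1 probe set. The values of the subsets depend on which probe sets were left out, and for the other settings the cause of the changes was not tested. No paired analysis was possible because each assay has 1 array. Signals within the range of the reporter genes cannot be ordered.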

Other observations

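The annotation pairs 3 probe sets outside both clusters with the same rbcl gene. Ta.14567.2.S1_at gave a 3'IVT log2 signal of 4.43 and a WT log2 signal of 14.55, which is percentile 99.49 of the WT array and 0.64 below its threshold. TaAffx.128896.17.S1_s_at, of the cluster that the study's lists name for ribosomal proteins L2, L14 and L23 of the chloroplast, had 11.73 and 10.40. Ta.3807.1.A1_at had 4.94 and 5.57, within the range of the reporter genes. These probe sets were chosen after their values were seen. RefSeq lists this gene among the nuclear genes of its assembly, and which genome copy the probe sets read was not tested.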
